A study of Danio rerio with 12 samples.

Results

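The regions described here are stretches of zebrafish chromatin that ranked among the strongest accessible sites of trunk chondrocytes and of no other sorted skeletal cell population in the study. Accessibility was measured by ATAC-seq, in which a transposase cuts open chromatin and leaves sequencing adapters there. The data are lists of summits, each being the base of highest signal in a called peak. Neighbouring summits, pooled over the 12 libraries, were chained into 133213 regions wherever the gap to the next summit was at most 250 bp. Each library was then reduced to its strongest 8407 summits, the length of the shortest list, and a group held a region when at least 2 of its 3 libraries had a kept summit in it. Of 13540 regions held by at least 1 group, 942 (6.96%) were held by trunk chondrocytes alone, which is 11.9% of the 7918 regions that trunk chondrocytes held.

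All fish were wild-type larvae of 15 days post fertilisation of the genotype entpd5a:Gal4FF;UAS:GFP;R2col2a1a:mCherry, and the labels call the 3 libraries of each group biological replicates. Trunk chondrocytes, from cartilage between the segments of the spine, were sorted as mCherry positive and GFP negative, as were head chondrocytes. Trunk osteoblasts, called non-classical in the labels, and head osteoblasts, called classical, were GFP positive and mCherry negative. Gal4FF made under entpd5a control switches on the UAS:GFP transgene, and mCherry is driven by a regulatory element of col2a1a, so each population is defined by a reporter and not by the endogenous gene. Trunk chondrocyte lists held 27334, 55274 and 8407 summits in replicates 1, 2 and 3, against 46446 to 79517 in head chondrocytes, 20380 to 64219 in trunk osteoblasts and 28911 to 78652 in head osteoblasts. Replicate 1 of trunk chondrocytes, trunk osteoblasts and head osteoblasts is described in the labels as having lost files. Reads were not analysed here, so the depth of a library is known only through its number of summits and their scores.

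Chondrocytes build cartilage, a matrix rich in type II collagen, and col2a1a encodes that collagen in zebrafish. Osteoblasts lay down bone mineral, and entpd5a encodes an enzyme needed for mineralisation in zebrafish. Cell types that share most of their genes are known to differ mainly at distal regulatory elements, which open or close with cell identity and position along the body. The element that drives mCherry reads col2a1a activity, and col2a1a is also known from the zebrafish notochord, so the trunk gate does not select cartilage by position. The labelled cell type could not be set against marker genes, because no annotation or sequence of the danRer11 build of these lists was used here. Regions are therefore given by coordinates, counted from 1, and carry no gene names. In sorted pools, a site open in fewer cells and a site less open in each cell cannot be told apart. Absence from a list says that no summit was called there, not that the chromatin was closed.

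In trunk chondrocytes the regions sat in the lower part of the kept lists. Their median rank, with 1 the strongest summit of a library, was 5770, 6069 and 5715 in trunk chondrocyte replicates 1, 2 and 3. Other regions held by trunk chondrocytes had median ranks of 3421, 3414 and 3031 there, and regions held by all 4 groups 2899, 2917 and 2335. These ranks come from the values that chose the regions and are given as a description. The authors' score, a p-value or q-value written as its −log10, had medians of 21.6, 97.5 and 5.87 in the 3 libraries. Each is over the regions with a kept summit in that library. Scores are therefore not comparable between libraries, and ranks within a list are used throughout.

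All 3 trunk chondrocyte libraries had a kept summit in 285 of the 942 regions (30.3%). Replicates 1 and 2 together held 404 (42.9%), replicates 1 and 3 held 146 (15.5%) and replicates 2 and 3 held 107 (11.4%). The regions that lack replicate 3 are the largest class, and replicate 3 has the shortest list. No kept summit of any other group lay in 516 regions (54.8%), whereas 345 had a kept summit in 1 of the other 9 libraries, 61 in 2 and 20 in 3. The kept summits of the trunk chondrocyte libraries lay within 50 bp of each other in 606 regions (64.3%), with a median range of 30 bp. Chaining already joins only summits with gaps of at most 250 bp. Like shares over other held regions are not given here, for these ranges or for the 516 regions, so both are a description.

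The 10 regions of lowest mean rank show how mixed the set is at its strong end. The mean is over the trunk chondrocyte libraries with a kept summit in the region. A library without one therefore does not count against a region. The region at chr23:26146695-26146819 ranked 867, 1191 and 1892 in trunk chondrocyte replicates 1, 2 and 3. It ranked 7494, 14892 and 37171 in head chondrocytes, 16739, 11599 and 9921 in trunk osteoblasts, and 58448 and 46481 in head osteoblast replicates 2 and 3, with no summit in replicate 1. All 3 trunk chondrocyte libraries placed it above every other library. The region at chr15:42260324-42260447 ranked 619, 1456 and 1995 in trunk chondrocytes and 9105, 17789 and 16140 in head chondrocytes. It ranked 17668 and 31348 in trunk osteoblast replicates 2 and 3 and 30704 in head osteoblast replicate 2, and it had no summit in the other osteoblast libraries. At chr19:31021205-31021263 the ranks were 515, 1470 and 2303 in trunk chondrocytes and 7583, 8637 and 12256 in head chondrocytes, with osteoblast summits in trunk replicate 3 (47366) and head replicate 2 (56979). In the region on chromosome 19 every osteoblast library stood below head chondrocytes or had no summit, whereas in the other 2 regions the ranks of head chondrocytes and trunk osteoblasts overlapped.

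A region of another kind lay at chr7:73904069-73904198, with ranks of 750, 987 and 2297 in trunk chondrocytes. Its nearest other ranks were in trunk osteoblasts, 7500 in replicate 3 and 12885 in replicate 2, while head chondrocyte replicates 1 and 2 had it at 50604 and 43008. Here the other trunk population came before the other cartilage population. The region at chr16:24752540-24752592 ranked 1424 and 1519 in trunk chondrocyte replicates 1 and 2, and the full lists of the other groups held a summit there in head chondrocyte replicate 1 alone, at 58176. The strongest region of all by mean rank, at chr17:39940984-39940996, ranked 575 and 259 in trunk chondrocyte replicates 1 and 3 but had no summit in replicate 2. It also ranked 920 in trunk osteoblast replicate 2 and 753 in head osteoblast replicate 1, so it was kept out of those groups only because 1 library of each had it.

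**Figure D1:**
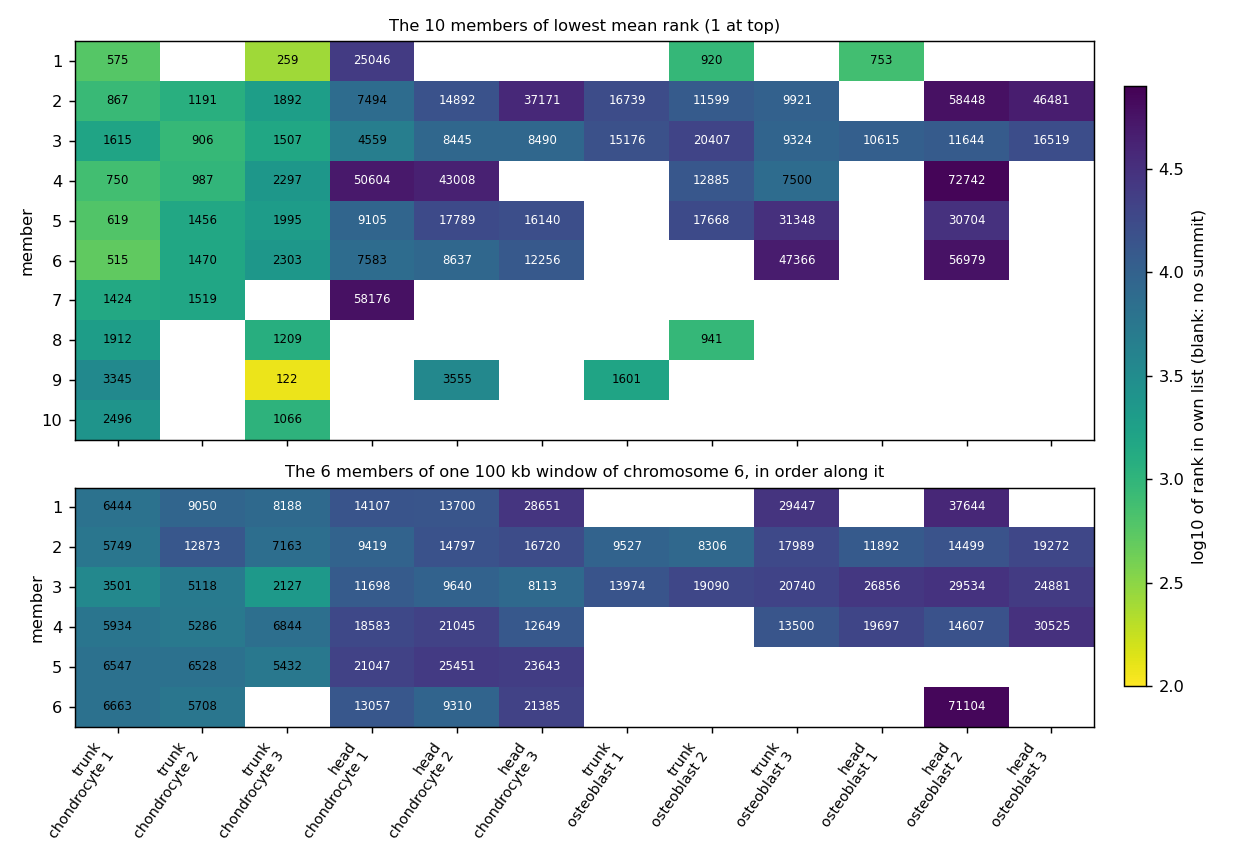
Rank of each library's strongest summit in 16 regions held by trunk chondrocytes alone (number in the cell, colour on a log10 scale, blank where the full list has no summit); rows are regions and columns are libraries. The upper 10 are those of lowest mean rank, and the lower 6 share a single 100 kb window; ranks in the lower 6 are 2127 to 12873 in trunk chondrocytes and 8113 to 28651 in head chondrocytes, while in the upper 10 trunk chondrocyte replicate 2 is blank in 4 rows and trunk osteoblast replicate 2 has ranks of 920 and 941.

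The pattern of the last region recurred in a small subset. Of the 942 regions, 20 had no summit anywhere in the full list of trunk chondrocyte replicate 2, although that list is the longest of the group. All 20 were held by replicates 1 and 3. Their median width was 32.5 bp against 102 bp over all 942, and 13 of them were under 50 bp wide, against 16.2% of all 942. A kept summit in trunk osteoblast replicate 1 or 2 or in head osteoblast replicate 1 was present in 14 of the 20, against 112 (11.9%) of all 942. Those 3 libraries have the shortest lists outside trunk chondrocytes, and 2 of them are among the libraries described with lost files; the part of either in this subset was not tested.

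Below the length used for the choice, most of the regions were found again in the other cell types. Head chondrocytes had a summit in 95.6%, 93.2% and 88.0% of the 942 regions in the full lists of replicates 1, 2 and 3. Trunk osteoblasts had one in 36.9%, 42.0% and 78.8%, and head osteoblasts in 34.6%, 76.9% and 62.1%. Head chondrocytes were above every osteoblast library, while the 2 osteoblast groups overlapped, and within each the share was higher in a library with a longer list. The median rank of the regions with a summit was 11518, 12173 and 14631 in head chondrocytes, 12759, 13874 and 19102 in trunk osteoblasts, and 15576, 30412 and 28733 in head osteoblasts. A longer list allows a lower rank, so medians over full lists are not on equal terms. Shares of all held regions found in each full list are not given here, so the shares above are a description of the set.

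**Figure D2:**
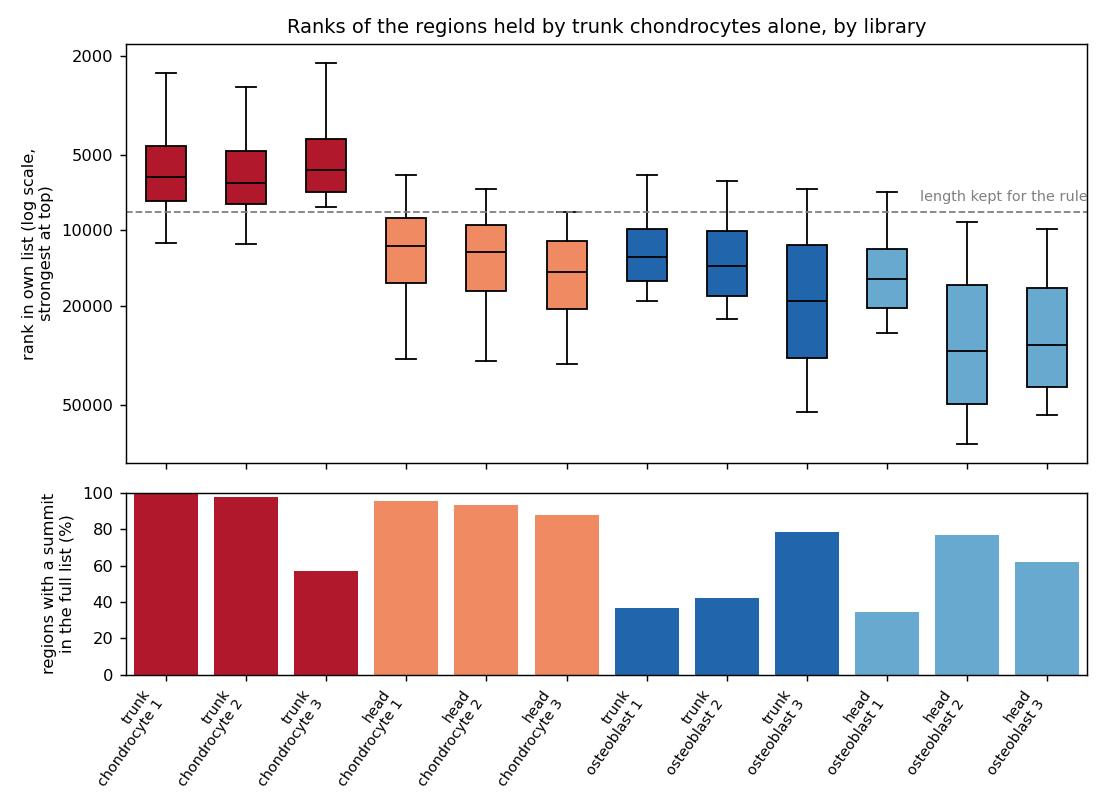
Upper panel, rank of the strongest summit in regions held by trunk chondrocytes alone, over the regions with a summit in each library's full list (log scale, strongest at the top; box is the quartiles, line the median, whiskers the 5th and 95th percentiles); the dashed line marks the kept length. Lower panel, share of the 942 regions with a summit in the full list, 88.0% to 95.6% in head chondrocytes and 34.6% to 78.8% in osteoblast libraries.

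Read to a common length of 20380 summits, the shortest list among the other 9 libraries, the 3 groups were ordered and did not overlap. Head chondrocytes had a summit in 80.9%, 76.5% and 65.3% of the regions (74.2% ± 8.05, SD, n = 3). Trunk osteoblasts had one in 36.9%, 34.9% and 40.6% (37.5% ± 2.85, n = 3), and head osteoblasts in 25.8%, 25.7% and 20.9% (24.1% ± 2.79, n = 3). Head chondrocytes thus stood nearest to trunk chondrocytes, and trunk osteoblasts before head osteoblasts. Since the regions were chosen for absence from these groups at a shorter length, the shares are a description with no test. The same reading of regions held by head chondrocytes alone gave 85.8% in trunk chondrocyte replicates 1 and 2, 33.4% in trunk osteoblasts and 37.2% in head osteoblasts (means over libraries).

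**Figure D3:**
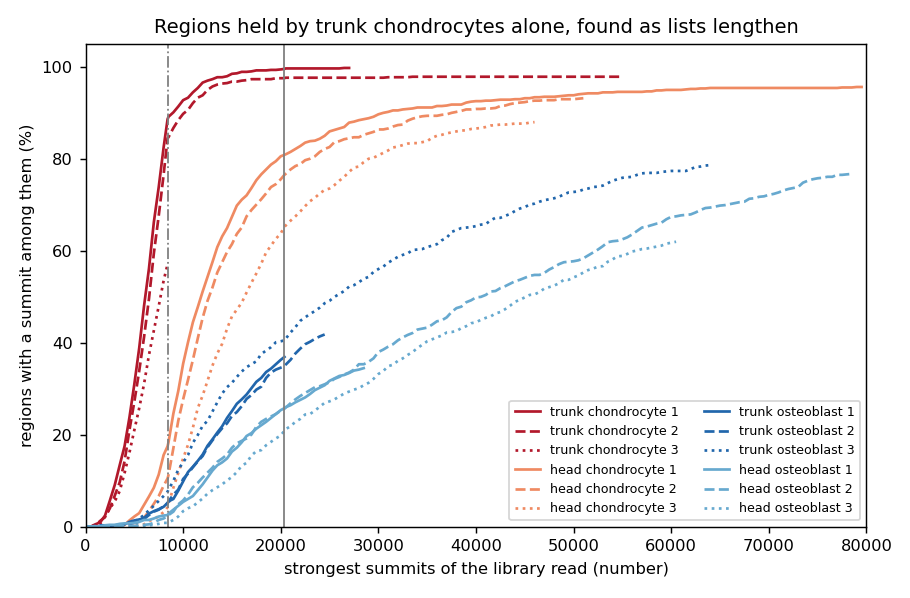
Share of the 942 regions with a summit among the strongest summits of each library, as more of its list is read (horizontal axis, number of summits; lines are libraries, coloured by group). The dash-dot line marks 8407 summits and the solid line 20380, where head chondrocyte libraries stand at 65.3% to 80.9%, trunk osteoblast libraries at 34.9% to 40.6% and head osteoblast libraries at 20.9% to 25.8%.

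For the 455 regions with a summit in all 6 chondrocyte libraries, the median rank in head chondrocytes was divided by that in trunk chondrocytes. This ratio had a median of 2.07, and it was above 2 in 239 regions. The rule fixes that the head chondrocyte median is the poorer rank, so the ratio is a description only. A total of 855 regions (90.8%) had a summit of another library within 16814 ranks, and 87 (9.24%) had none so near. Every one of the other 9 full lists had a summit in 149 regions (15.8%). At the other end, 4 regions (0.425%, exact 95% binomial interval 0.116% to 1.08%, counting error only) had no summit in any of the 9. These were chr6:16717558-16717584, chr13:39950687-39950693, chr9:55136265-55136276 and chr8:19428395-19428417. Each was 27 bp wide or less, and only that on chromosome 8 had summits in all 3 trunk chondrocyte libraries, at ranks 6739, 10785 and 7504. None of the 4 was therefore a strong site in every trunk chondrocyte library.

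No osteoblast library had a summit in 97 regions (10.3%), and in 77 of these all 3 head chondrocyte libraries had one. The same absence was found in 5.05% of the 990 regions held by head chondrocytes alone and in 1.51% of all held regions. The set was chosen for absence from these groups at a shorter length, so no test was made. The strongest of those with a kept summit in all 3 trunk chondrocyte libraries lay at chr5:15951098-15951128, with ranks of 1634, 3048 and 2235 in trunk chondrocytes and 8866, 4317 and 9450 in head chondrocytes. At chr7:25761340-25761474 the ranks were 2192, 5509 and 3318 in trunk chondrocytes and 24780, 18299 and 32089 in head chondrocytes. Both were called in all 6 chondrocyte libraries, with every trunk library ahead of every head library.

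No head library had a summit in 16 regions (1.70%), against 1.96% of the 1018 regions held by trunk osteoblasts alone and 0.295% of all held regions, and 12 of these had one in at least 1 trunk osteoblast library. Only 2 had one in all 3, at chr5:6123454-6123592 and chr3:8361963-8362126. The first ranked 4277 and 6257 in trunk chondrocyte replicates 1 and 2 and 16032, 5893 and 13595 in trunk osteoblasts. The second ranked 7288 and 7715 in trunk chondrocyte replicates 1 and 2 and 13479, 7727 and 10379 in trunk osteoblasts. Replicate 3 of trunk chondrocytes had no summit at either. Head chondrocyte lists hold 46446 to 79517 summits and 3 of the 6 osteoblast lists 20380 to 28911, so absences from full lists are not on equal terms. Read to 20380 summits in every library, 397 regions (42.1%) had no summit in the 6 osteoblast libraries and 111 (11.8%) had none in the 6 head libraries. At that length, 38.2% of regions held by head chondrocytes alone and 9.93% of all held regions had no osteoblast summit. No head summit was found in 13.8% of regions held by trunk osteoblasts alone and in 1.96% of all held regions. Neither absence was thus particular to the set.

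The widest gaps in rank are given as a description, since lists differ in length and the ranks are those of the choice. These regions were picked out after their values were seen, among those with a kept summit in all 3 trunk chondrocyte libraries. The measure was the ratio of the best rank in another group to the poorest kept trunk chondrocyte rank. Some regions kept in only 2 of those libraries had larger ratios, such as 38.3 at chr16:24752540-24752592. The regions below had 7.57 and 7.35. At chr23:36025580-36025770 trunk chondrocytes ranked 3417, 2564 and 3940, head chondrocyte replicates 1 and 2 ranked 29833 and 32789, and trunk osteoblast replicate 3 ranked 42557. At chr20:40374809-40375106 trunk chondrocytes ranked 5386, 6438 and 7119, and the best rank elsewhere was 52338, in head osteoblast replicate 2. In both regions every rank outside trunk chondrocytes was 29833 or poorer.

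The edge of the set was crowded. The rule itself sets that edge by rank, and like shares over other regions held by trunk chondrocytes are not given here. In 253 regions (26.9%) the second trunk chondrocyte rank lay in the last 840 ranks kept, and in 155 (16.5%) the second rank in another group lay within 840 ranks below the kept length. Just inside, chr9:9030179-9030319 had a second trunk chondrocyte rank of 8406. Just outside, chr7:65039468-65039505 had one of 8410. On the side of the other groups, chr23:35944874-35945291 entered with a second trunk osteoblast rank of 8411, and chr7:9178502-9178718 was kept out by one of 8406. Another 213 regions held by trunk chondrocytes were kept out by a rank in the last 840 of another group.

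Membership moved with the list length. With 4203 summits kept per library, 441 regions were held by trunk chondrocytes alone, and 111 of them were among the 942, which is 11.8% of the 942 and 25.2% of the 441. With 16814 kept (all of the list where it was shorter), there were 1225 and 206 were shared, 21.9% and 16.8%. With full lists there were 896 and 34 were shared, 3.61% and 3.79%. At 16814 summits, 638 of the 942 regions were also held by head chondrocytes, 292 by trunk osteoblasts and 163 by head osteoblasts. The largest class then was held by both chondrocyte groups and no osteoblast group, with 406 regions (43.1%), while 66 were held by both trunk groups only and 106 by all 4. At 4203, 8407 and 16814 summits alike, 27 regions were held by trunk chondrocytes alone. Among the 27 was chr15:33841635-33841666, with ranks of 1941, 1459 and 2989 in trunk chondrocytes, 12755, 29014 and 43248 in head chondrocytes, 32080 in trunk osteoblast replicate 3 and 66225 in head osteoblast replicate 2.

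Libraries left out of the choice were then read. Regions held by trunk chondrocytes alone were chosen from the 8 libraries of 2 replicate numbers and looked up in the 4 libraries of the number left out. Region boundaries were still chained over all 12 libraries, and the kept length of 8407 is that of trunk chondrocyte replicate 3. The libraries left out thus shaped the regions and the length, while their kept summits did not decide which regions were chosen. The kept summits of trunk chondrocytes covered 74.3% of 631 such regions in replicate 1, 66.0% of 721 in replicate 2 and 42.3% of 829 in replicate 3 (60.9% ± 16.6, SD, n = 3). Head chondrocytes covered 43.3%, 35.0% and 13.1% (30.5% ± 15.6), trunk osteoblasts 12.4%, 21.6% and 14.8% (16.3% ± 4.80), and head osteoblasts 6.18%, 7.35% and 4.22% (5.92% ± 1.58). Within each number the trunk chondrocyte library was the highest and the head osteoblast library the lowest. Head chondrocytes came second in numbers 1 and 2, but in number 3 trunk osteoblasts (14.8%) stood above them (13.1%). Over all regions held by any group in the other 2 numbers, the same trunk chondrocyte libraries covered 62.4%, 64.9% and 54.3%, below the shares of the set in replicates 1 and 2 and above that in replicate 3. Head chondrocyte libraries covered 65.8%, 66.0% and 63.0% of these held regions, above their shares of the set in every number. Across numbers the trunk and head chondrocyte ranges overlapped, since 42.3% in trunk replicate 3 was below 43.3% in head replicate 1. The 3 choices share libraries, so no test was made over them. Regions chosen in the same way for each other group were found again in 75.4% ± 8.89 for head chondrocytes, 59.6% ± 12.3 for trunk osteoblasts and 72.7% ± 4.16 for head osteoblasts (SD, n = 3 each).

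**Figure D4:**
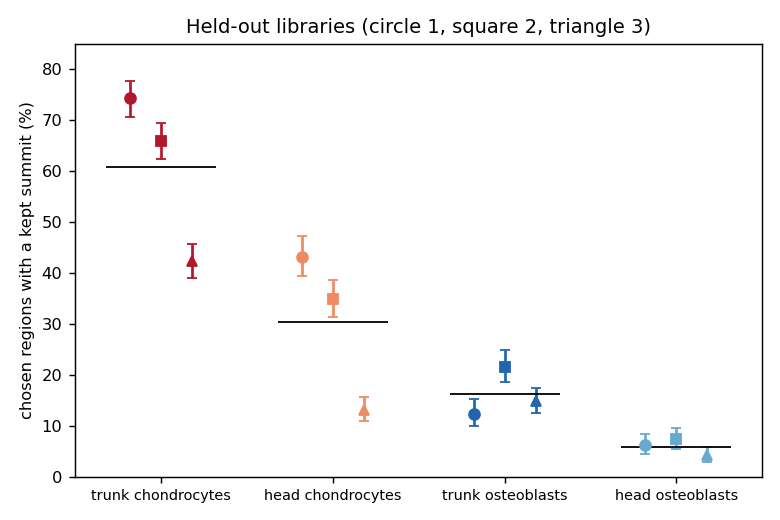
Share of regions with a kept summit in a library whose kept summits took no part in choosing them (vertical axis, percent). Symbols are the number left out, bars exact 95% binomial intervals for counting error only, and lines group means. Region boundaries come from all libraries. Trunk chondrocyte libraries stand at 42.3% to 74.3%, head chondrocytes at 13.1% to 43.3%, trunk osteoblasts at 12.4% to 21.6% and head osteoblasts at 4.22% to 7.35%.

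The 942 regions were wider than the regions held by all 4 groups, with a median of 102 bp (3 to 684 bp) against 58 bp. Regions held by a single other group had similar medians, 93 bp for head chondrocytes, 102 bp for trunk osteoblasts and 96 bp for head osteoblasts. A region's width is the spread of the summits joined in it. The median summit of trunk chondrocytes lay a median of 17.5 bp from that of the other libraries' full lists, and in 44 regions the distance was over 100 bp. On the 25 chromosomes lay 919 of the regions, and 23 were on other scaffolds. They made up between 4.24% of the held regions of chromosome 22 (16 of 377) and 10% of those of chromosome 4 (43 of 430, exact 95% interval 7.33% to 13.2%), with a median of 6.79% over chromosomes. The interval is for counting error only. It makes no allowance for chromosome 4 being the highest of 25, and no excess there was tested.

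A kept summit of another group lay inside the region or within 1000 bp of it in 449 cases (47.7%, exact 95% interval 44.4% to 50.9%). In 60 regions (6.37%) such a summit lay in a neighbouring region within that distance. The median distance to the nearest held region was 11996 bp. Another region held by trunk chondrocytes alone lay within 10 kb of 5.84% of the set, against 4.14% for head chondrocytes alone, 9.23% for trunk osteoblasts alone, 8.17% for head osteoblasts alone and 14.3% for regions held by both chondrocyte groups. These sets hold 942, 990, 1018, 1469 and 1746 regions, so the shares are not on equal terms. The median distance to the nearest region of the same set was 258133 bp, against 344447 bp for head chondrocytes alone and 270948 bp for trunk osteoblasts alone. The nearest held region outside the set, at 1 to 50 kb, was known for 699 regions. It was held by both chondrocyte groups only in 20.5% of cases, against 13.9% of all held regions outside the set. It was held by both osteoblast groups only in 6.87%, against 10.4%, and by both trunk groups only in 3.15%, against 1.68%. These shares were not all particular to the set. For head chondrocytes alone they were 19.7% (against 13.9%), 5.18% (against 10.4%) and 1.44% (against 1.69%) in the same order. For trunk osteoblasts alone the share of both osteoblast groups was 14.5% (against 10.5%) and that of both trunk groups 5.44% (against 1.69%). There the share of both chondrocyte groups was not raised.

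In windows of 100 kb, 738 held 1 of the regions, 71 held 2, 11 held 3 and 1 held 6. The window with 6, chr6:7000001-7100000, had no other held region, so all that any group held there was held by trunk chondrocytes alone. Its strongest region, chr6:7073215-7073895, ranked 3501, 5118 and 2127 in trunk chondrocytes and 11698, 9640 and 8113 in head chondrocytes. It ranked 13974, 19090 and 20740 in trunk osteoblasts and 26856, 29534 and 24881 in head osteoblasts, so that the 4 groups did not overlap. A neighbour at chr6:7091647-7091781 ranked 6547, 6528 and 5432 in trunk chondrocytes and 21047, 25451 and 23643 in head chondrocytes, and no osteoblast library had a summit there. All 6 regions had summits in the 3 head chondrocyte lists, at ranks between 8113 and 28651. Of the 11 windows with 3 regions each, 4 are named here, in order of the mean rank of their regions. They are chr9:7300001-7400000, chr9:55100001-55200000, chr17:41900001-42000000 and chr4:8900001-9000000.

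Whether chromatin around the regions also differed was tested on the other regions. The 942 regions were removed, and all other regions with a summit in each library's full list were counted per 100 kb window. Kept summits in those other regions had entered the choice, which left them out. Regions held by another single group stayed in the counts. The counts are therefore not independent of the choice, and the effect of this was not tested. Windows that averaged 1 region or more over the libraries, 9391 in all, were tested with limma on log2(regions + 0.5) with the log2 list length as covariate, and Benjamini-Hochberg adjusted p-values of at most 0.05 were called. Fold changes on this scale understate changes in windows with few regions. Against head chondrocytes, 0 windows were called higher and 0 lower (0% each of all windows tested). An unadjusted limma p under 0.05 was found in 474 of the 9391. Where nothing differs, a share of about 0.05 of windows falls under that limit, so the unadjusted counts are a description. Of the 800 tested windows that held a region of the set, 53 had an unadjusted p under 0.05, with 39 of these higher in trunk chondrocytes, against 225 of the 474 over all windows and 134 of 251 in windows with any held region.

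Against trunk osteoblasts, limma called 33 of those 800 windows higher in trunk chondrocytes and 12 lower. Over all windows, 156 (1.66%) were higher and 140 (1.49%) lower. In the 5793 windows with any held region, 125 (2.16%) were higher and 126 lower. Against head osteoblasts it called 8 of the 800 higher and 4 lower, beside 25 (0.266%) higher and 55 (0.586%) lower over all windows. In windows with any held region, 15 (0.259%) were higher and 52 lower. Against the mean of the other 3 groups 1 of the 800 was higher and 0 were lower. Over all windows 2 (0.0213%) were higher and 16 (0.17%) lower, and in windows with any held region 2 and 15. An unadjusted limma p under 0.05 was found in 162 of the 800 and 1272 of all windows. The median log2 difference over the 800 windows was 0.08 against trunk osteoblasts, 0.11 against head osteoblasts and 0.09 against head chondrocytes. Over all windows it was 0.04, 0.02 and 0.00 for the same comparisons, which share the trunk chondrocyte libraries. In the 83 windows with at least 2 regions of the set, the medians were 0.21, 0.16 and 0.16. Windows of the set were richer in regions, with a median of 6.5 per library against 3.75 over all windows, and the part of that in the counts was not tested.

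**Figure D5:**
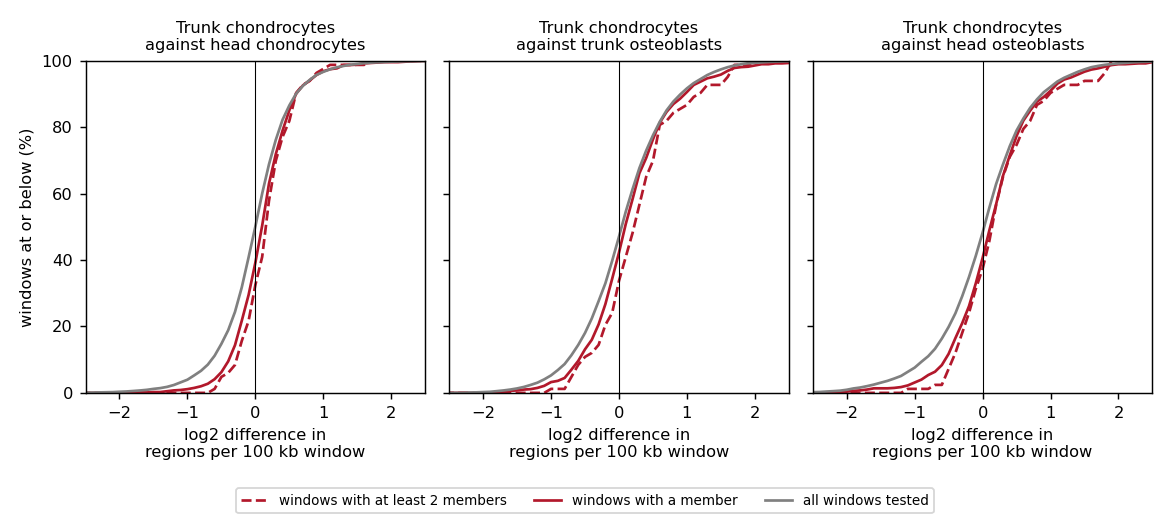
Cumulative share of 100 kb windows (vertical axis, percent) by the log2 difference in regions per window between trunk chondrocytes and each other group, with the regions held by trunk chondrocytes alone left out. Lines are the 83 windows with at least 2 such regions (dashed), the 800 with a region (solid red) and all 9391 tested (grey); the red medians of 0.08 to 0.11 lie right of the grey medians of 0.00 to 0.04.

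The counts in the osteoblast comparisons changed when many of the single libraries were left out, also libraries outside the groups compared. Against trunk osteoblasts, the 296 calls in both directions became 76 without trunk chondrocyte replicate 1. They became 63, 46 and 586 without trunk osteoblast replicates 1, 2 and 3, then 174, 154 and 171 without head chondrocyte replicates 1, 2 and 3, and 175 without head osteoblast replicate 3. Against head osteoblasts, the 80 calls became 0 and 341 without trunk chondrocyte replicates 1 and 3. They became 6, 8 and 39 without head chondrocyte replicates 1, 2 and 3, and 0 and 1 without head osteoblast replicates 1 and 3. Against the mean of the other 3 groups, leaving out any of the 12 libraries moved the 18 calls by over 1.5 times, to between 0 and 128.

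A pair of windows of the set, chosen after their values were seen, kept their call against trunk osteoblasts under all 15 alternatives that tested them. The window chr8:48200001-48300000 held 5, 10 and 1 other regions in trunk chondrocytes, 13, 10 and 11 in head chondrocytes, 0, 0 and 4 in trunk osteoblasts and 3, 15 and 11 in head osteoblasts. Its log2 difference from trunk osteoblasts was 2.68 ± 0.36 (SE), with a limma adjusted p of 0.0022 (0.00014 to 0.021 over the alternatives). The window chr8:11200001-11300000 held 4, 7 and 1 regions in trunk chondrocytes, 9, 6 and 6 in head chondrocytes, 0, 0 and 3 in trunk osteoblasts and 1, 5 and 6 in head osteoblasts. Its log2 difference from trunk osteoblasts was 2.48 ± 0.39, with a limma adjusted p of 0.0078 (0.0015 to 0.037). In both, trunk osteoblasts were the group with few regions, and the raw counts of trunk chondrocytes and trunk osteoblasts overlapped through their shortest and longest lists.

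Of the 5 windows named above for their number of regions of the set, chr17:41900001-42000000 was the only one called against the mean of the other 3 groups. It held 6, 9 and 3 other regions in trunk chondrocytes, 9, 4 and 4 in head chondrocytes, 1, 1 and 3 in trunk osteoblasts and 1, 6 and 3 in head osteoblasts. The log2 difference was 1.60 ± 0.30 with a limma adjusted p of 0.048, which ranged from 0.025 to 0.32 over 16 alternatives and held in 4 of them. Against trunk osteoblasts it was 1.94 ± 0.33 with a limma adjusted p of 0.0086, called in 15 of the 16 alternatives. The window on chromosome 6 with 6 regions of the set, chr6:7000001-7100000, held 5, 8 and 1 other regions in trunk chondrocytes and 1, 1 and 7 in trunk osteoblasts. Its log2 difference from trunk osteoblasts was 1.22 ± 0.32 with a limma adjusted p of 0.047, called in 4 of 15 alternatives, and it was not called with the replicate number as a block (limma adjusted p 0.058). Against head chondrocytes neither was called.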

How the data were processed

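ATAC-seq libraries of 4 groups of 3 were grouped and numbered by their titles. The build was danRer11 and the tools were MACS2, deepTools, bedtools, SAMtools, Bowtie2 and fastp, per the submitters' processing notes, which give no versions; settings are not given in sources used here. Enzyme amount and transposition time were adjusted to cell number, per the labels' protocols. The deposited lists hold 1-base summits per library, and their score is a −log10 value from the authors' peak caller, of either the p-value or the q-value, which is not stated. The scores differ widely between libraries and were used only to rank summits within a list, ties in list order. The lowest score was 1.31, and the −log10 of 0.05 is 1.30. In 7 of 12 lists the number inside the peak names differs from that of the title, which was followed.

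Python 3.11.15 (numpy 2.4.6, pandas 2.3.3, scipy 1.17.1) made the regions, ranks and shares, and limma 3.58.1 in R 4.3.3 tested windows in a model of 4 group means with trended, robust variance moderation and 7 residual degrees of freedom. On simulated data for trunk chondrocytes against the mean of the other 3 groups, it called few windows changed by 1 on the log2 scale. Small differences can therefore be missed. The simulated spread was a set value, not fitted to these data. The regions and lists were chosen with earlier results of these data known. Planned descriptions of gene starts, motifs, base composition and gene lists were not analysed here, as no genome or annotation of this build was used. Named regions are the 10 of lowest mean rank, those with no summit in the other 9 full lists, and those just inside and outside the kept length. Named windows are that with 6 members and 4 of the 11 with 3 members. Others were picked after their values were seen. They are regions with no osteoblast or no head summit, regions found at 3 list lengths, and the windows of chromosome 8. Regions with the widest rank gap among those kept in all 3 trunk chondrocyte libraries were picked likewise. Window residuals of same-numbered trunk chondrocyte and trunk osteoblast libraries had correlations of 0.11, 0.12 and 0.63. Those of same-numbered trunk chondrocytes and the other groups were −0.32 to 0.26. Libraries of different numbers and groups ranged from −0.59 to 0.51, so only the value of 0.63 lay above that range. No pairing by number is inferred, and the comparison with trunk osteoblasts is also given with the number as a block. Alternatives changed list length, chaining distance, libraries needed, window size, pseudocount, filter, covariate and replicates. Comparisons with each single group, the common-length alternatives and the choice without the libraries with lost files were added after seeing the data.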

Additional observations from a re-analysis of the deposited data

How the results depend on the processing

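The number of regions held by trunk chondrocytes alone was 942, and it became 441 with 4203 summits kept, 529 when all 3 libraries of a group were needed, 516 when no library of another group might have a kept summit, and 444 without the 3 libraries described with lost files (392 of the 942 among them). It ranged from 392 (without trunk chondrocyte replicate 1) to 1274 (without head chondrocyte replicate 2) with each library left out, and it was 431 without trunk chondrocyte replicate 2. Leaving out a library of another group kept all 942 and added others. The rule fixes this, since a group left with 2 libraries then needs both to hold a region. For the same reason, leaving out a trunk chondrocyte library could only remove regions. The share with no summit in the other 9 full lists, 0.425%, became 2.20% with 16814 summits kept, 1.25% with chaining at 100 bp and 0% when all 3 libraries were needed, and ranged from 0% to 0.857% with a library left out. The share with a kept summit of another group within 1000 bp, 47.7%, became 60.0% within 5000 bp. The mean shares at the common length became 84.6% in head chondrocytes, 49.8% in trunk osteoblasts and 34.2% in head osteoblasts when all 3 libraries were needed, in the same order.

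Windows called by limma against the mean of the other 3 groups numbered 18, and they became 1 with the replicate number as a block, 51 with a pseudocount of 1, 373 with the strongest 8407 summits only and no covariate, and 0 to 128 with each library left out. Against head chondrocytes the 0 became 34 with the strongest summits only, and 0 to 2 with a library left out, the 2 arising without trunk chondrocyte replicate 2. Against trunk osteoblasts the 296 became 303 with the replicate block and ranged from 46 to 586 with a library left out. Against head osteoblasts the 80 became 45 with the replicate block, 140 with a pseudocount of 1, 569 with the strongest summits only, and 0 to 341 with a library left out. With the strongest summits only, the median log2 difference over the 461 tested windows of the set was 0 against each other group. In the other alternatives that median stayed above 0 against each of them. The cause of these changes was not tested. Alternatives for gene starts and base composition were not run. The shortest list, 8407 summits in trunk chondrocyte replicate 3, limits every choice made at equal length.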
